A study of Mus musculus with 9 samples.

Results

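*Pnmt*, *Kazald1*, *Nrip2* and *Fam132a* are 4 of the 26858 genes counted in SIX2 nephron progenitors, and they were selected on their read counts, which were clearly lower in progenitors without the mitochondrial complex III subunit QPC, although none is a familiar gene of nephron formation. SIX2-expressing cells were sorted by fluorescence from kidneys at age E18.5, with 4 libraries from heterozygous *Six2-Qpc*+/- controls and 5 from *Six2-Qpc*-/- mutants. In both genotypes a bacterial artificial chromosome transgene expressed Cre fused to eGFP from the *Six2* promoter, and eGFP was the signal used for sorting. Controls therefore carried Cre and had lost 1 *Qpc* allele in these cells, whereas mutants were bred to carry floxed alleles on both chromosomes, and cells outside the SIX2 lineage kept the gene. The labels name no litter, sex or batch and do not say that each library is a separate animal, so p-values measure only the spread between these libraries.

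Each member belongs to a different branch of biology. PNMT transfers a methyl group from S-adenosylmethionine to noradrenaline and so makes adrenaline, and in the adrenal medulla its gene is known for its response to glucocorticoids. KAZALD1 is a secreted protein with an IGFBP-like domain and a Kazal-type protease inhibitor domain, NRIP2 binds nuclear receptors and modulates transcription, and FAM132A, also called adipolin or C1QTNF12, is a secreted C1q/TNF-related protein known as an insulin-sensitising adipokine. WNT4, the comparison gene used here, is the signal by which cap mesenchyme turns into epithelium and is switched on as progenitors commit.

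The sorted cells carried the RNA of nephron progenitors in both genotypes. *Six2* had 571 ± 53.4 counts per 1000000 normalised counts (CPM; mean ± SD, n = 4) in controls and 704 ± 102 CPM (n = 5) in mutants, and none of the 14 tested progenitor markers of 15 passed the edgeR test. At an unadjusted p under 0.05, 3 of these markers were lower and 1 higher, and DESeq2 called 1 lower and limma-voom 2 lower and 1 higher. *Uqcrq*, which encodes QPC (chromosome 11, 53427922 to 53430831), had 94.1 ± 13.3 CPM in control and 21.3 ± 4.45 CPM in mutants (log2 fold change −2.14, standard error, SE, 0.16, edgeR quasi-likelihood test, adjusted p = 2.09e-05), with 386 to 637 reads left in each mutant library. Library totals were 21040536 to 23986458 counts. In the comparison of all 14990 genes that passed the filter on low counts, 7.02% were lower and 7.82% higher in mutant cells at an adjusted p under 0.05, 14.8% in either direction. Every mutant library lay below every control library for 7.73% of the tested genes. All 4 members passed the filter and all 4 were lower without overlap between genotypes, a count that follows from how they were selected and is given with these shares as a description only. Fewer cells of a type among the sorted cells and less RNA per cell cannot be told apart in these bulk libraries.

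*Pnmt* (ENSMUSG00000038216, GRCm38 chromosome 11, 98386450 to 98388181, plus strand) fell furthest of the 4 and varied most between libraries. It had 40.9, 25.5, 16.5 and 16.5 CPM in control 71, 72, 73 and 76, and 9.12, 4.52, 2.24, 3.25 and 2.36 CPM in mutant 74, 75, 77, 78 and 79. The lowest control library was 1.81 times the highest mutant library, and the standard deviation was 46.2% of the mean in control and 66.2% in mutant cells. The log2 fold change of *Pnmt* was −2.52 (SE 0.41), which is 17.4% of the control level, and it lay between −3.0 and −2.18 when each library was left out in turn. Reads on *Pnmt* numbered 392 to 960 per control and 44 to 214 per mutant library.

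*Kazald1* (ENSMUSG00000025213, GRCm38 chromosome 19, 45075241 to 45079289, plus strand) had 55.8, 45.3, 56.5 and 32.5 CPM in control 71, 72, 73 and 76. The mutant libraries 74, 75, 77, 78 and 79 had 13.3, 12, 6.73, 10.9 and 7.49 CPM, so that even the lowest control library was 2.44 times the highest mutant library. The log2 fold change was −2.23 (SE 0.23), or 21.3% of the control level, with a range of −2.37 to −2.12 over the fits without 1 library. The promoter of *Kazald1* is shown because a RefSeq promoter was found for only 1 of the 4 genes. Its start site in RefSeq is the start of the counted gene. These are the 250 bases before it on the plus strand of GRCm38.p6 (chr19:45074991-45075240), as RefSeq gives them, with matches to 2 searched motifs in capitals.
Kazald1 promoter: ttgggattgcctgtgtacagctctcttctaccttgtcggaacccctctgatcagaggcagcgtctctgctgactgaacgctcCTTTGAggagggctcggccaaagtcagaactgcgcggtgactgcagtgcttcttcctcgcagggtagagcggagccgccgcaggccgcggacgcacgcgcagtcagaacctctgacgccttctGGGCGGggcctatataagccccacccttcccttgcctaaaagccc
The capitals mark CTTTGA, the core bound by TCF/LEF factors, which begins 168 bases before the start, and GGGCGG, an SP/KLF box, which begins 45 bases before it. CTTTGA was present on either strand in 13.8% and GGGCGG in 32.7% of 32851 promoters cut to the same 250 bases, so neither match is rare, and the matches do not overlap. No match was found in this window for TGGGAA (RBPJ, in 21.6% of promoters), TCANGTTTC (SIX2, 0.989%), GCGNGGGCG (EGR, 4.7%), AGAACA (glucocorticoid receptor half-site, 16.1%), TGATGNAA (C/EBP-ATF, 3.45%) or CANCTG (E-box, 44.8%), of which only the letters given here were searched. The matches are letters in a sequence and were not tested as binding sites, and 61.2% of the window was G or C.

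*Nrip2* (ENSMUSG00000001520, GRCm38 chromosome 6, 128399296 to 128408932, plus strand) had 19.6, 24.6, 31.6 and 17 CPM in control 71, 72, 73 and 76 and 6.82, 5.40, 4.95, 3.74 and 5.22 CPM in mutant 74, 75, 77, 78 and 79. The lowest control library exceeded the highest mutant library by a factor of 2.49. Its log2 fold change was −2.15 (SE 0.22), or 22.6% of the control level, and leaving out each library gave −2.26 to −1.96. The antisense gene *Gm15862* overlaps the start of *Nrip2*, and without strand information their reads cannot be told apart, but only 0 to 3 reads per library were assigned to *Gm15862*. A later GENCODE model of *Nrip2* runs on to 128416427 and over *Itfg2* on the opposite strand, which lies 512 bp beyond the counted end of *Nrip2* and had a log2 fold change of −0.26 (SE 0.12, edgeR adjusted p = 0.148).

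*Fam132a* (ENSMUSG00000023571, GRCm38 chromosome 4, 155962318 to 155966629, plus strand) was the most abundant and the most even of the 4. It had 294, 272, 266 and 230 CPM in control 71, 72, 73 and 76, and 137, 120, 115, 129 and 103 CPM in mutant 74, 75, 77, 78 and 79. The standard deviation was 9.98% of the mean in control and 10.7% in mutant cells, and the lowest control library was 1.69 times the highest mutant library. The log2 fold change of −1.14 (SE 0.12) left 45.5% of the control level, and it stayed between −1.19 and −1.08 without any 1 library.

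**Figure D1:**
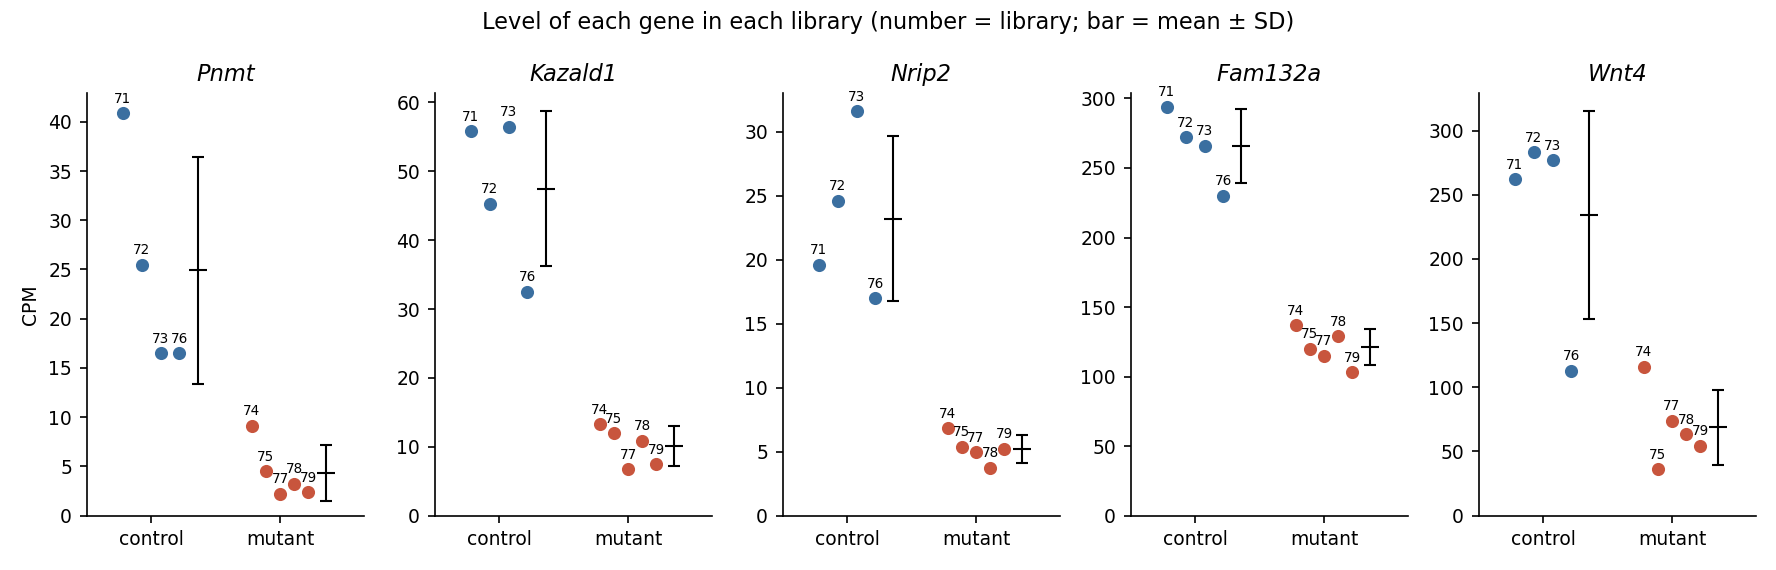
CPM of the 4 genes and of *Wnt4* in each of 4 control (blue) and 5 mutant (red) libraries, numbered by library, with the mean and SD beside them on axes that start at 0. Control and mutant points do not overlap for the 4 genes, whereas for *Wnt4* mutant 74 (116 CPM) lies above control 76 (113 CPM).

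Divided by gene length, the control levels of the 4 genes were 202 ± 20.2 CPM per kilobase for *Fam132a*, 29.2 ± 6.91 for *Kazald1*, 21.5 ± 9.96 for *Pnmt* and 7.11 ± 1.98 for *Nrip2* (SD, n = 4 each). The ranges of mean ± SD of *Kazald1* and *Pnmt* overlapped, and *Fam132a* stood apart. In mutant cells the order was the same, with 91.9 ± 9.82, 6.21 ± 1.76, 3.72 ± 2.47 and 1.6 ± 0.338 CPM per kilobase (SD, n = 5 each). There too the ranges of *Kazald1* and *Pnmt* overlapped. Whether these genes differ within each library was not tested. When the 675 genes with a fall past the threshold and a mean of at least 10 CPM were ordered by log2 fold change, *Pnmt* came 2, *Kazald1* 4 and *Nrip2* 5, with *Gm15772* (−5.16) and *Col9a1* (−2.36) before and between them and *Uqcrq* next. *Fam132a* came 68, between *Jun* (−1.14) and *Fsd1* (−1.13). *Fam132a* thus fell less than the other 3, with the smallest standard error of the 4.

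Several genes around *Pnmt* were lower in mutant cells as well. Of 8 tested genes within 100 kb of *Pnmt*, 5 were lower and 0 higher, where 7.02% of all tested genes were lower, and their median log2 fold change was −0.85 beside −0.01 over all tested genes. *Tcap*, which encodes a titin-binding muscle protein and ends 1497 bp before *Pnmt*, had a log2 fold change of −2.01 (SE 0.40, edgeR adjusted p = 0.00666). *Ppp1r1b*, which encodes the phosphatase inhibitor DARPP-32 and lies 28654 bp before *Pnmt*, fell by 2.20 on the log2 scale (SE 0.36, edgeR adjusted p = 0.00287). *Stard3*, which encodes a cholesterol transfer protein of late endosomes, had a log2 fold change of −0.74 (SE 0.15, edgeR adjusted p = 0.00659) at a distance of 5338 bp. *Grb7*, an adaptor of receptor tyrosine kinases 58213 bp after *Pnmt*, had a log2 fold change of −2.21 (SE 0.56, edgeR adjusted p = 0.0196) on 52 to 199 reads per control and 3 to 38 per mutant library.

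The fifth of these genes, *Erbb2*, which encodes a receptor tyrosine kinase and lies 24289 bp after *Pnmt*, had the least stable call. Its log2 fold change was −0.96 (SE 0.28, edgeR adjusted p = 0.0364), but it passed the threshold in only 2 of the 9 fits that left out 1 library, and mutant 74 with 43.5 CPM lay above control 71 and 76 with 39.3 and 38.9 CPM. *Grb7* passed in 7 of these fits, and *Ppp1r1b*, *Stard3* and *Tcap* in all 9. The nearest gene on the other side, *Pgap3*, an enzyme of GPI anchor remodelling that lies 496 bp after *Pnmt* on the minus strand, had a log2 fold change of −0.56 (SE 0.23, adjusted p = 0.111), and *Mien1* (0.10, adjusted p = 0.797) and *Ikzf3* (0.75, adjusted p = 0.102) also did not pass the edgeR test. The count of lower genes near *Pnmt* ranged from 3, without control 72 or without control 73, to 6. Within 50 kb of *Pnmt*, 4 of 6 tested genes were lower, with a median log2 fold change of −0.85. Within 250 kb, 5 of 14 were lower, with a median of −0.52.

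The values by library of 3 of these genes are given next. Control 71 and 72 had 17.3 and 16.7 CPM of *Ppp1r1b* and control 73 and 76 had 7.75 and 6.54 CPM, while the mutant libraries 74, 75, 77, 78 and 79 had 4.43, 1.99, 1.89, 1.72 and 3.09 CPM. *Tcap* had 15.9, 13.5, 6.87 and 7.89 CPM in control 71, 72, 73 and 76, and 5.58, 1.51, 2.35, 2.85 and 1.32 CPM in mutant 74, 75, 77, 78 and 79. *Stard3* had 136, 131, 108 and 107 CPM in the same control libraries and 89.8, 53.4, 77.1, 69.8 and 71.5 CPM in the mutant libraries. As for *Pnmt*, control 71 and 72 were above control 73 and 76 in each of these 3 genes, mutant 74 was the highest of the mutants, and no mutant reached a control. The order of the other mutants differed between the genes, with mutant 75 the lowest in *Stard3*. None of the 8 correlations between *Pnmt* and a tested neighbour within genotypes passed the threshold after adjustment (exact permutation test, lowest adjusted p = 0.18). *Grb7* did not overlap either, but its controls were ordered otherwise, with 2.56, 7.75, 6.07 and 2.19 CPM in control 71, 72, 73 and 76.

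**Figure D2:**
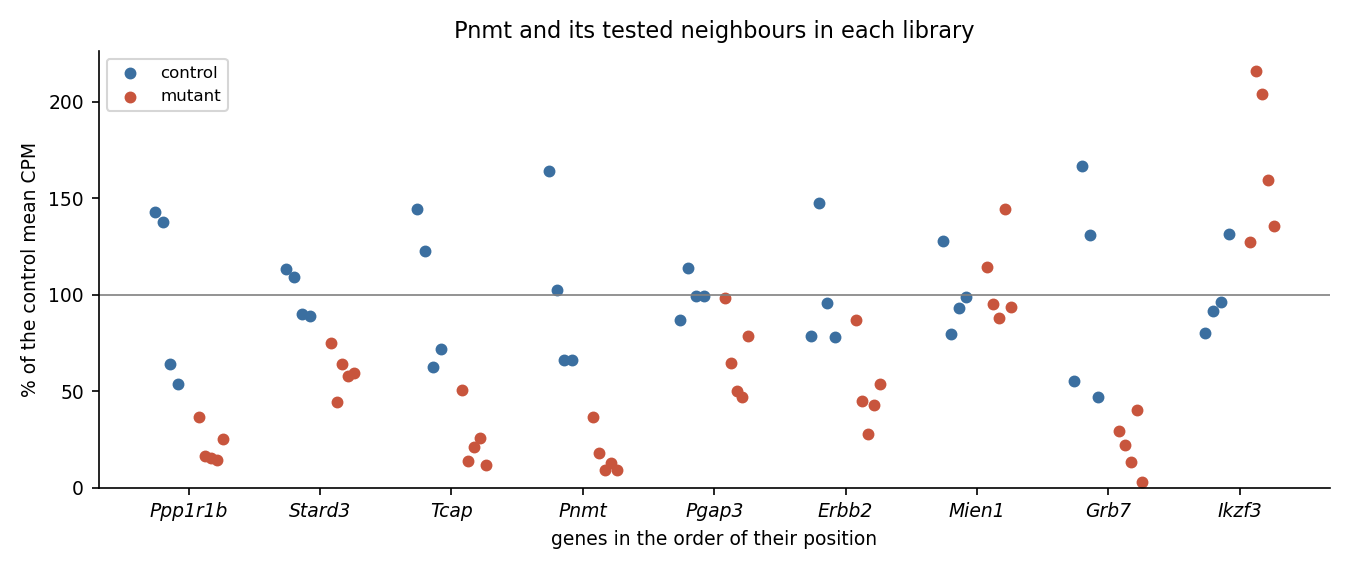
CPM of *Pnmt* and its 8 tested neighbours in each library as a percent of the control mean of that gene, with genes from left to right in chromosome order, control libraries in blue and mutant libraries in red. The mutant points lie below all control points for *Ppp1r1b*, *Stard3*, *Tcap*, *Pnmt* and *Grb7*, and overlap them for *Mien1*. For *Pgap3* and *Erbb2*, mutant 74 lies among the controls and the other 4 mutants lie below every control.

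Around the other 3 genes, no tested neighbour passed the edgeR test for a fall. Among all tested genes 7.02% were lower and 7.82% higher, so few calls would be found among so few neighbours at those shares. Within 100 kb of *Kazald1*, 0 of 7 tested genes were lower and 1 was higher, *Mrpl43*, which encodes a mitochondrial ribosomal protein (log2 fold change 0.48, SE 0.15, edgeR adjusted p = 0.0469, past the threshold in 3 of the 9 fits without 1 library). Their median log2 fold change was −0.05. Near *Nrip2*, 0 of 9 tested genes passed in either direction, with a median of −0.14, and near *Fam132a* 0 of 10, with a median of −0.11. At an unadjusted p under 0.05, 1 gene near *Kazald1*, 2 near *Nrip2* and 3 near *Fam132a* were lower. DESeq2 called 0 lower near each of the 3, and limma-voom 0, 1 and 2. *Ube2j2*, which encodes a ubiquitin-conjugating enzyme and ends 2714 bp before *Fam132a*, had a log2 fold change of 0.37 (SE 0.12, edgeR adjusted p = 0.0555), in the direction opposite to *Fam132a*. Whether the count near *Pnmt* differs from the counts near the other genes was not tested.

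**Figure D3:**
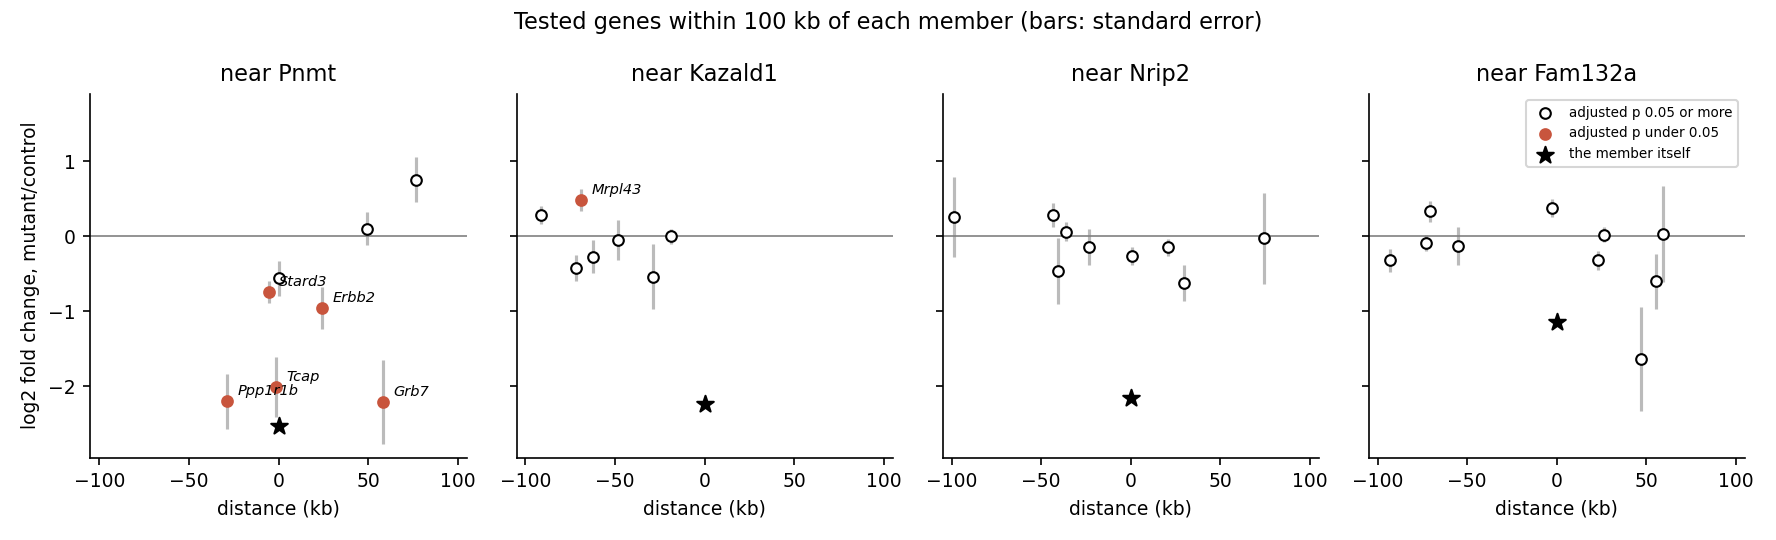
Log2 fold change of every tested gene within 100 kb of each member against its distance in kb from the member's span, with standard errors. Filled points passed an adjusted p of 0.05, and the star is the member itself. Near *Pnmt* 5 filled points lie below 0, and near *Nrip2* and *Fam132a* none is filled.

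Within genotypes, no relation of the 4 genes to *Wnt4* passed the test. *Wnt4* had 262, 283, 277 and 113 CPM in control 71, 72, 73 and 76, and 116, 36.1, 73.9, 63.5 and 54.6 CPM in mutant 74, 75, 77, 78 and 79, a log2 fold change of −1.76 (SE 0.32, edgeR adjusted p = 0.0058). Since the genotypes form 2 clusters of libraries, each log2 CPM was taken as its deviation from the genotype mean, and the exact permutation test ran over all 2880 reorderings of the 9 libraries within genotypes. For *Fam132a* Pearson's r was 0.66 (2-sided exact permutation p = 0.0774, adjusted p = 0.283 over 4 relations) and Spearman's rho 0.72 (exact permutation p = 0.0444, adjusted p = 0.178). For *Nrip2* r was 0.55 (exact permutation p = 0.181, adjusted p = 0.283) and rho 0.62 (exact permutation p = 0.11, adjusted p = 0.22). *Pnmt* had an r of 0.44 (exact permutation p = 0.271, adjusted p = 0.283) and a rho of 0.37 (exact permutation p = 0.362, adjusted p = 0.362). *Kazald1* had an r of 0.43 (exact permutation p = 0.283, adjusted p = 0.283) and a rho of 0.42 (exact permutation p = 0.302, adjusted p = 0.362).

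These coefficients were not uncommon among all genes. Of 14989 tested genes, 8.53% had an r with *Wnt4* at least as high as that of *Fam132a*, 15.8% as that of *Nrip2*, 22.5% as that of *Pnmt* and 23.2% as that of *Kazald1*, and the nascent nephron gene *Lhx1* itself had an r of 0.55. Without control 76 and mutant 75, the libraries farthest from the median *Wnt4* deviation, r was 0.69 for *Fam132a*, 0.61 for *Nrip2*, 0.73 for *Pnmt* and 0.61 for *Kazald1*. Single libraries moved it as well. Without mutant 74, r was 0.03 for *Pnmt* and 0.22 for *Kazald1*, without control 76 it was 0.09 for *Kazald1* and 0.31 for *Nrip2*, and without mutant 75 it was 0.76 for *Kazald1*. A pair of libraries stood at the edges of their genotype. Control 76 was the lowest control in *Wnt4*, *Kazald1*, *Nrip2* and *Fam132a* and shared the lowest place with control 73 in *Pnmt*, and mutant 74 was the highest mutant in all 5 genes. Without both libraries, left out together after their values were seen, the log2 fold changes were −3.14 for *Pnmt*, −2.49 for *Kazald1*, −2.37 for *Nrip2*, −1.23 for *Fam132a* and −2.25 for *Wnt4*. Leaving out a lowest control and the highest mutant enlarges a fall by construction, so these larger falls are a description only.

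**Figure D4:**
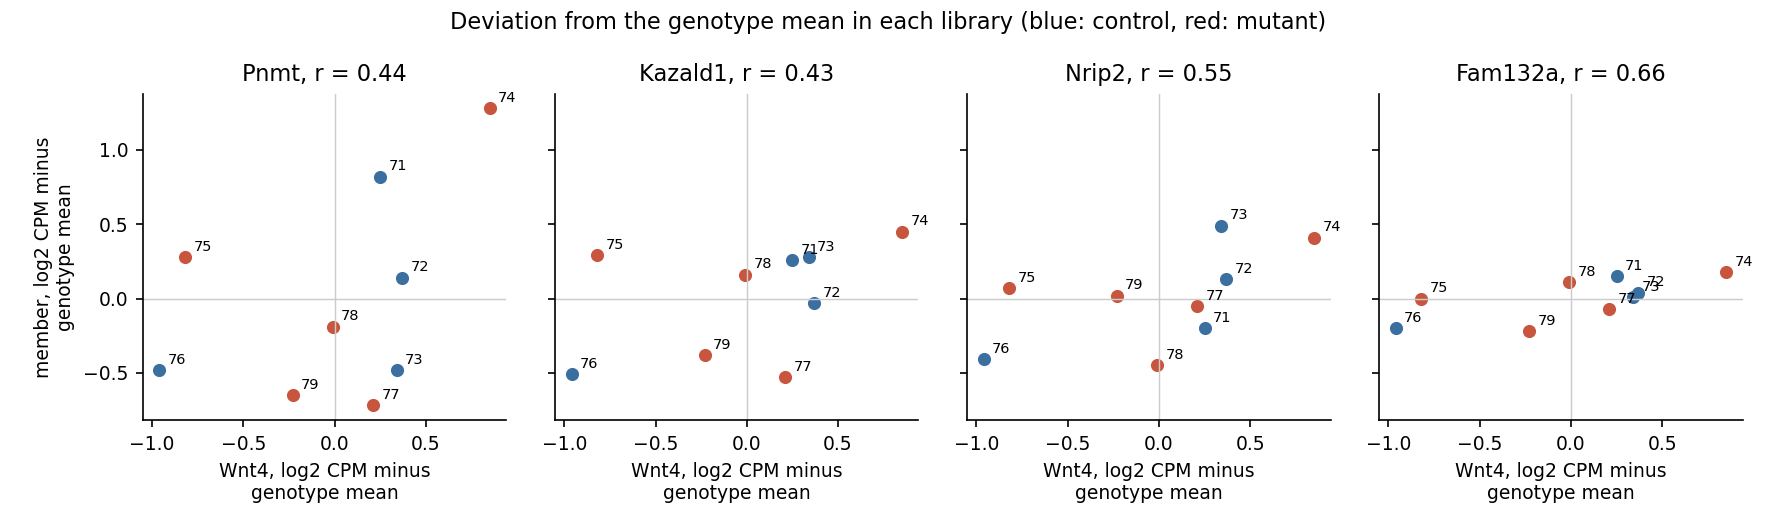
Deviation of each gene's log2 CPM from its genotype mean against that of *Wnt4* in 4 control (blue) and 5 mutant (red) libraries, numbered by library. Mutant 74 lies at the upper right and control 76 at the left in all 4 panels, and r was 0.44 for *Pnmt*, 0.43 for *Kazald1*, 0.55 for *Nrip2* and 0.66 for *Fam132a*.

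Among themselves, *Pnmt*, *Kazald1* and *Fam132a* had higher coefficients with each other than with *Nrip2*, but no pair passed the adjusted threshold and the difference between pairs was not tested. Over the 9 libraries r was 0.84 for *Kazald1* and *Fam132a* (exact permutation p = 0.0184, adjusted p = 0.0603 over 6 pairs) with a rho of 0.67 (exact permutation p = 0.0941, adjusted p = 0.188). *Pnmt* and *Fam132a* had an r of 0.79 (exact permutation p = 0.0201, adjusted p = 0.0603) and a rho of 0.78 (exact permutation p = 0.034, adjusted p = 0.144), and *Pnmt* and *Kazald1* an r of 0.75 (exact permutation p = 0.0389, adjusted p = 0.0778) and a rho of 0.75 (exact permutation p = 0.0479, adjusted p = 0.144). Without control 76 and mutant 77, the libraries farthest from the median *Kazald1* deviation, r was 0.83 for *Kazald1* and *Fam132a*. Without control 71 and mutant 74, the farthest for *Pnmt*, r was 0.59 for *Pnmt* and *Fam132a* and 0.66 for *Pnmt* and *Kazald1*. *Nrip2* had an r of 0.44 with *Kazald1*, 0.26 with *Pnmt* and 0.23 with *Fam132a*. Without control 73 and mutant 78, the farthest for *Nrip2*, its r with *Fam132a* was 0.52. Its r was 0.24 with *Kazald1* without control 76 and mutant 77, and 0.07 with *Pnmt* without control 71 and mutant 74. These pairs were examined after the values of the 4 genes were known.

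The genes whose deviations were most like those of each member, among 9348 with a mean of at least 10 CPM, did not pass the test between genotypes. For *Pnmt* they were *Rnf25* (r = 0.98) and *Dffa* (0.97), with log2 fold changes of −0.14 and 0.01. For *Kazald1* they were *Uqcc1* (0.99), which encodes an assembly factor of complex III, *Rerg* (0.97) and *Dnajc3* (0.95), with log2 fold changes of −0.20, 0.24 and −0.15. For *Nrip2* they were *Itpk1*, *Acbd3* and *Acsl3*, each with an r of 0.97 and with log2 fold changes of −0.59, 0.21 and 0.08. For *Fam132a* they were *Fam53b*, *Gadd45b* and *Npy*, each with an r of 0.96 and with log2 fold changes of −0.03, 0.48 and −0.41. The adjusted p-values of these genes ranged from 0.0667 to 0.966 (edgeR). With 9 libraries and 9348 genes compared, such r are a description and carry no p, and 8 to 34 genes per member reached an r of 0.9.

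The remaining genes of the pathway in which PNMT takes the last step went in both directions. Of 11 tested genes of catecholamine synthesis, transport and breakdown, 2 were lower and 1 higher, beside 7.02% lower and 7.82% higher among all tested genes, with a median log2 fold change of 0.00. *Cyb561*, which passes electrons from ascorbate into the storage vesicles, had a log2 fold change of −0.94 (SE 0.20, edgeR adjusted p = 0.00987), and *Spr*, an enzyme of tetrahydrobiopterin synthesis, of −0.65 (SE 0.17, adjusted p = 0.0219). *Slc18a2*, the vesicular monoamine transporter, rose by 0.75 on the log2 scale (SE 0.20, edgeR adjusted p = 0.0283). *Spr* and *Slc18a2* each passed in 5 of the 9 fits that left out 1 library, losing the call without control 71, 72 or 73 or mutant 78. *Th*, the entry enzyme of the pathway, had 0 to 4 reads per library and *Slc6a2*, the noradrenaline transporter, 0 to 2 reads, whereas *Ddc*, the decarboxylase, had 14.5 ± 3.76 CPM in control and 12 ± 2.02 CPM in mutant libraries, and *Dbh* was not analysed here.

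Chromaffin cells, the usual site of PNMT, were scarcely visible in these libraries. Of the 7 chromaffin markers with a value, only *Slc18a1* passed the filter on low counts, and the summed level of the 7 was 2.40 to 6.39 CPM in control and 2.95 to 7.33 CPM in mutant libraries. *Th* (0 to 4 reads) and *Chga* (0 to 5) were at or near 0 in every library. Adrenal cortex markers summed to 2.91 to 3.75 CPM in control and 2.26 to 3.58 CPM in mutant libraries, with *Cyp11a1* and *Cyp21a1* at 0 to 1 read. *Nr5a1*, which encodes the steroidogenic factor SF-1, had 0.547 ± 0.229 CPM in control and 0.0685 ± 0.102 CPM in mutant libraries (0 to 19 reads), below the filter on low counts, and was the 1 adrenal cortex marker that DESeq2 called lower. No chromaffin marker passed the edgeR test, at an adjusted or an unadjusted p under 0.05, and none was called by DESeq2 or limma-voom.

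Genes for the methyl donor and for glucocorticoid signalling, both tied to PNMT, were read beside the 14.8% of all tested genes that passed in either direction. None of 7 tested genes of S-adenosylmethionine supply passed in either direction with edgeR (0 lower and 1 higher at an unadjusted p under 0.05, none with DESeq2, 1 lower and 1 higher with limma-voom), and their median log2 fold change was −0.09. *Mat2a*, the synthetase of the donor, had 462 ± 74 CPM in control and 434 ± 52.3 CPM in mutant libraries. None of 4 tested adrenergic receptors passed with edgeR, whereas DESeq2 and limma-voom each called 1 lower, as did edgeR at an unadjusted p under 0.05. *Adra1a*, at 11.2 ± 3.5 CPM in control and 6.5 ± 1.73 CPM in mutant libraries, had a log2 fold change of −0.79 (SE 0.27, adjusted p = 0.0604). Of 9 tested genes of glucocorticoid signalling, 1 was lower and 1 higher. *Hsd11b2*, which inactivates corticosterone, had a log2 fold change of −0.70 (SE 0.16, edgeR adjusted p = 0.0113). The clock gene *Per1* rose by 0.71 on the log2 scale (SE 0.21, edgeR adjusted p = 0.0409) but in only 2 of the 9 fits without 1 library, and the receptor gene *Nr3c1* had a log2 fold change of 0.13 (SE 0.17, adjusted p = 0.625).

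Among relatives of *Kazald1*, the calls in the IGF axis were mostly falls, and other Kazal domain genes went both ways. Of 13 tested IGF axis genes, 5 were lower and 1 higher, beside 7.02% and 7.82% of all tested genes, with a median log2 fold change of −0.33. *Igfbp4* fell from 517 ± 94.0 CPM (SD, n = 4) to 190 ± 43.7 CPM (SD, n = 5), a log2 fold change of −1.44 (SE 0.17, edgeR adjusted p = 0.000472). *Htra3*, which encodes a secreted serine protease (−1.42, adjusted p = 0.00269), the growth factor gene *Igf2* (−0.80, adjusted p = 0.00387), *Igfbp5* (−0.62, adjusted p = 0.012) and *Igfbp2* (−0.39, adjusted p = 0.0252) were also lower. *Igfbp7* rose by 1.96 on the log2 scale (SE 0.45, adjusted p = 0.0178), from 13.0 to 27.5 CPM in control to 41.2 to 167 CPM in mutant libraries. *Igfbp2* passed in 5 and *Igfbp7* in 6 of the 9 fits without 1 library, and the other 4 in all 9.

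Of 14 tested other Kazal domain genes, 4 were higher and 3 lower, beside 7.02% lower and 7.82% higher among all tested genes, with a median log2 fold change of 0.18. *Tmeff2*, which encodes a membrane protein with follistatin-like domains, rose from 0.862 ± 0.252 to 5.98 ± 2.57 CPM, a log2 fold change of 2.78 (SE 0.38, edgeR adjusted p = 0.00103), and the testican gene *Spock1* had a log2 fold change of 1.82 (adjusted p = 0.00473). The matricellular genes *Sparcl1* (1.36, adjusted p = 0.0437, in 2 of the 9 fits without 1 library) and *Smoc2* (1.35, adjusted p = 0.0132) were also higher. *Sparc*, which encodes a matricellular protein, fell from 2140 ± 128 to 1370 ± 33.3 CPM (log2 fold change −0.64, SE 0.10, edgeR adjusted p = 0.00196), *Spock2* had a log2 fold change of −0.74 (adjusted p = 0.0144), and the activin-binding gene *Fstl3* one of −1.36 (adjusted p = 0.0236, in 7 of the 9 fits). Stroma markers, some of which encode extracellular matrix as well, moved with genotype beside these lists: 5 of 9 tested were higher and 0 lower, and their sum was 107 to 193 CPM in control and 238 to 645 CPM in mutant libraries. Their part in the changes of the secreted genes was not tested.

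Nuclear receptors, the class of protein that NRIP2 binds, and coregulators were read beside the 14.8% of all tested genes that passed in either direction. Of 24 tested genes, 0 were lower and 3 higher with edgeR, beside 7.02% lower and 7.82% higher among all tested genes. At an unadjusted p under 0.05, 2 were lower and 4 higher, with 0 and 4 by DESeq2 and 1 and 5 by limma-voom. The median log2 fold change was 0.11. *Pparg*, which encodes a lipid-sensing receptor, rose from 0.795 ± 0.369 to 3.59 ± 1.42 CPM (log2 fold change 2.17, SE 0.40, edgeR adjusted p = 0.00477), and the oestrogen receptor gene *Esr1* from 1.01 ± 0.59 to 2.91 ± 1.15 CPM (1.52, SE 0.45, adjusted p = 0.0385, in 4 of the 9 fits without 1 library). The retinoic acid receptor gene *Rarb* had 108 ± 18.6 CPM in control and 109 ± 29.1 CPM in mutant libraries. *Nrip1*, a corepressor, and *Nrip3* share the name of the member and had log2 fold changes of −0.23 (SE 0.22, adjusted p = 0.513) and −0.10 (SE 0.46, adjusted p = 0.905).

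In the C1q/TNF family, the namesake of *Fam132a* was lower as well. Of 12 tested relatives, 3 were lower and 1 higher, beside 7.02% lower and 7.82% higher among all tested genes, with a median log2 fold change of −0.55. *Fam132b*, which encodes the iron hormone erythroferrone, had 1.30 ± 0.601 CPM in control and 0.314 ± 0.196 CPM in mutant libraries, and its log2 fold change was −2.02 (SE 0.54, edgeR adjusted p = 0.0248) on 2 to 47 reads per library, and it passed in 6 of the 9 fits without 1 library. *C1ql4* (−2.15, SE 0.44, adjusted p = 0.00769) and *C1qtnf7* (−2.04, SE 0.26, adjusted p = 0.000715) were lower, and *C1qtnf3* was higher, from 1.13 ± 0.499 to 6.96 ± 4.45 CPM (2.61, SE 0.45, adjusted p = 0.00342). *Adipoq*, which encodes the adipocyte hormone adiponectin, had 0 to 2 reads per library.

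**Figure D5:**
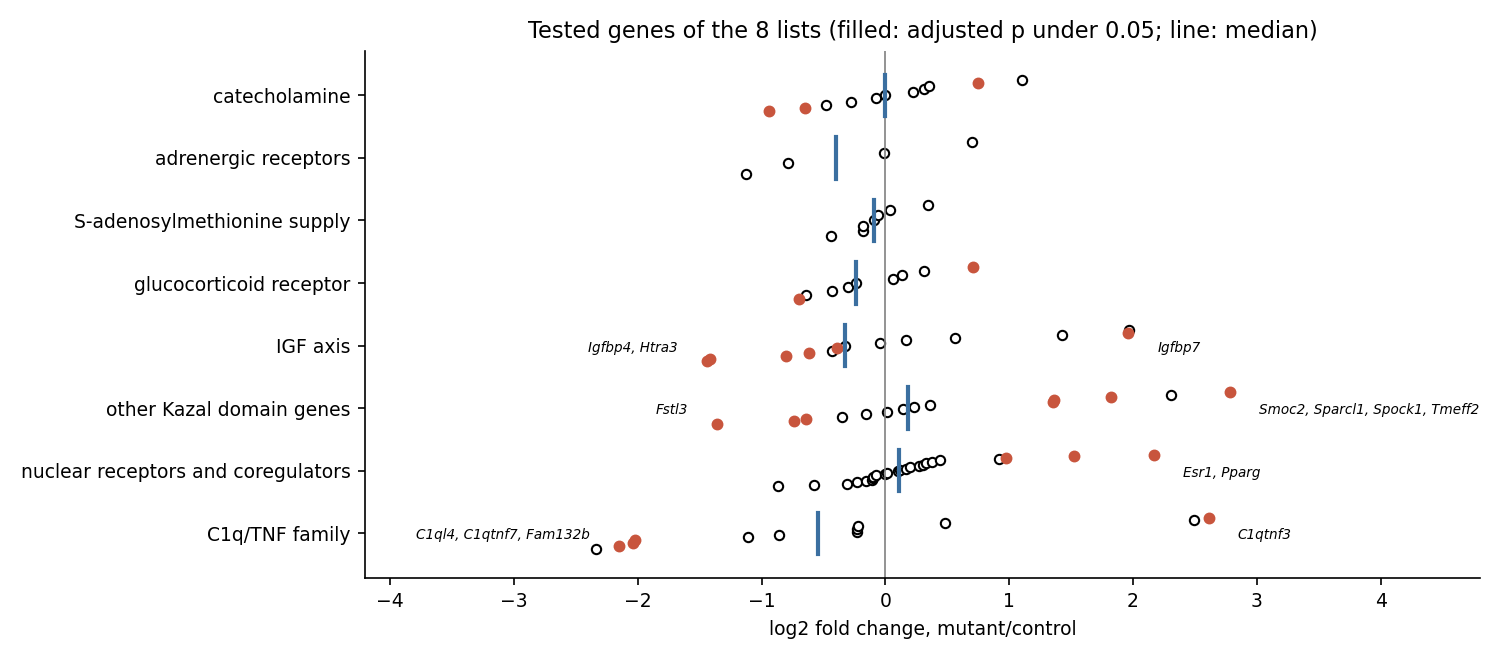
Log2 fold change, mutant over control, of every tested gene in the 8 lists of relatives, with genes past an adjusted p of 0.05 filled, those past it with a change of more than 1 named, and a blue line at the median of each list. The IGF axis has 5 filled points below 0, the nuclear receptors have 3 above 0, and S-adenosylmethionine supply and the adrenergic receptors have none.

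The nascent nephron markers give the setting in which the 4 genes fell. Of 15 tested, 5 were lower and 0 higher, beside 7.02% lower and 7.82% higher among all tested genes, and their median log2 fold change was −0.83. The study chose several of these markers on these same libraries, so they are no independent evidence. *Lhx1* (−2.36, adjusted p = 0.00102, edgeR), *Wnt4* and *Tmem100* (−0.98, adjusted p = 0.0124) were lower in all 9 fits without 1 library, whereas *Emx2* (−2.13, adjusted p = 0.0284) and *Ccnd1* (−1.23, adjusted p = 0.0438) passed in 4 and 2 of them. *Pax8* (182 ± 33.7 CPM in control and 181 ± 48.6 CPM in mutant libraries) and *Hey1* (149 ± 26.6 and 130 ± 20.5 CPM) did not pass, nor did *Fgf8* (−1.11, adjusted p = 0.054), *Jag1* (−0.69, adjusted p = 0.125) and *Lef1* (−0.62, adjusted p = 0.143). The summed level of the list was 559 to 980 CPM in control and 461 to 606 CPM in mutant libraries. Its part in the falls of *Pnmt*, *Kazald1*, *Nrip2* and *Fam132a* was not tested.

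Other markers also moved with genotype beside the 4 genes. ATF4 response genes were higher in 12 of 15 tested, beside 7.02% lower and 7.82% higher among all tested genes. Their sums were 1280 to 1520 CPM in control and 2200 to 3370 CPM in mutant libraries. Myeloid markers were higher in 2 of 8 tested with edgeR, in 6 with DESeq2 and in 7 with limma-voom, and summed to 2.47 to 15.4 CPM in control and 11.9 to 167 CPM in mutant libraries, and of the endothelial markers *Pecam1* was higher and *Plvap* lower. *Pecam1* rested on 0 to 57 reads per library (edgeR adjusted p = 0.0469) and passed in 1 of the 9 fits without 1 library, *Plvap* in all 9. None of the 13 tested ureteric bud, erythroid, podocyte, proximal tubule or adrenal cortex markers passed with edgeR, beside 14.8% of all tested genes in either direction. At an unadjusted p under 0.05, 3 were lower and 2 higher, and DESeq2 and limma-voom each called 3 lower. Of the ureteric bud markers, *Ret* (0 to 13 reads) and *Wnt9b* (0 to 7 reads) were near 0. *Hoxb7* had 40.5 ± 4.26 CPM in control and 29.3 ± 6.09 CPM in mutant libraries, and *Wnt11* 12.9 ± 5.05 and 7.17 ± 2.36 CPM. The ureteric bud list summed to 46.7 to 67 CPM in control and 28.4 to 69 CPM in mutant libraries. How these levels bear on the 4 falls was not tested.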

How the data were processed

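The cDNA was amplified from sorted cells with a low-input kit, and poly(A)-selected libraries without strand information were sequenced. The authors deposited read counts per gene, with no normalization. The submitters' processing notes name STAR, DESeq2 and build mm10 without settings, and the counting tool is not given in the sources used here. The deposited FPKM (9 columns), the group means and the authors' fold changes and p-values were not used.

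Counts were compared in R 4.3.3 with edgeR 4.0.16 (filterByExpr, TMM, robust quasi-likelihood test, Benjamini-Hochberg adjustment over 14990 genes, threshold 0.05) and checked on simulated data. CPM use TMM library sizes, standard errors (SE) were derived from the fold change and the F statistic of the test, and log2 CPM carry a prior count of 1. Genes were matched by symbol. The 4 genes and all lists were chosen with earlier results of these data known, so their own falls carry no test. Genes named are the 4 genes, *Uqcrq*, *Wnt4*, list genes and neighbours past the threshold, list genes near 0, the 3 genes most like each member (2 for *Pnmt*), and those next to them in order of fall. *Ube2j2*, *Pgap3* and other genes that did not pass were named after their values were seen. Alternatives used DESeq2 1.42.0, limma 3.58.1 (voom) and sva 3.50.0. A few genes that the rule would name are not reported here. RefSeq promoters were found for 1 of the 4 genes. Figures used matplotlib 3.10.9.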

Additional observations from a re-analysis of the deposited data

Results flagged for a closer look

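Of 22 groups of libraries examined for a value that stands apart (11 genes in 2 genotypes), 1 was flagged. *Wnt4* had 113 CPM in control 76, far below the 262 to 283 CPM of the other 3 control libraries, a gap of 0.877 of the range. About 1 group in 20 is flagged by chance. The same library was the lowest control in *Kazald1*, *Nrip2* and *Fam132a*, without being flagged there.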

How the results depend on the processing

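The 4 members and *Wnt4* kept their direction under every alternative run, which for the members follows from how they were selected. No relation to *Wnt4* crossed the threshold or changed sign, although r moved to 0.03 for *Pnmt* without mutant 74, to 0.09 for *Kazald1* without control 76 and to 0.79 for *Kazald1* on CPM without log. No paired analysis was possible because the labels name no litter or batch by which control and mutant libraries could be paired. The median log2 fold change of all genes was −0.009 in the reported fit and 0.059 with DESeq2. The cause was not tested for any of the following shifts in counts. limma-voom with quality weights called 2455 genes lower and 2403 higher, 1 lower near *Nrip2*, 2 near *Fam132a*, 1 lower adrenergic receptor, 1 lower and 1 higher S-adenosylmethionine gene, 2 higher glucocorticoid genes, 1 lower and 5 higher nuclear receptor genes and 6 lower C1q/TNF genes. DESeq2 called 2 higher catecholamine genes, 1 lower adrenergic receptor, 2 higher IGF axis genes and 2 higher C1q/TNF genes. Without a filter beyond 1 count, 0 IGF axis genes were higher, with 1 surrogate variable 6 nuclear receptor genes were higher, and within 250 kb 1 gene near *Fam132a* was lower. Without control 76 and mutant 74 together, an alternative added after seeing the data, 1658 genes were lower and 1925 higher, with 2 higher glucocorticoid genes, 0 higher IGF axis genes, 1 lower nuclear receptor gene and 2 higher C1q/TNF genes. Leaving out each library in turn gave 491 to 1533 lower genes (661, 584 and 491 without control 71, 72 and 73, and 615 without mutant 78) and 555 to 1603 higher genes (693, 688, 555 and 721 without the same libraries). It gave 3 to 6 lower genes near *Pnmt*, 1 to 3 lower and 0 to 2 higher catecholamine genes, 0 to 1 lower adrenergic receptors, 0 to 2 higher glucocorticoid genes, 0 to 2 higher IGF axis genes, 0 to 1 lower nuclear receptor genes and 1 to 2 higher C1q/TNF genes. Depth limits *Grb7*, *Fam132b* and *Emx2*, which rest on a few reads in some mutant libraries.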
